A study of Mus musculus with 6 samples.

Results

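The genes described here encode cytokines of the IL-6 family, their receptors and the feedback inhibitor of the shared receptor, in chondrocytes with lowered Irf1. The 10 genes were chosen by symbol among the 55377 genes counted: the ligands Il6, Il11, Lif and Clcf1, the receptor chains Il6st, Il6ra, Il11ra1, Osmr and Lifr, and the inhibitor Socs3. Each symbol matched a single gene, and all 10 were among the 14683 genes with enough counts to be tested. Primary chondrocytes from mouse articular cartilage were transfected with an siRNA against Irf1 (3 libraries) or with a control siRNA (3 libraries), and total RNA was taken 36 h later for sequencing of polyadenylated transcripts. The product of Irf1 (interferon regulatory factor 1) is a DNA-binding activator that interferons and inflammatory cytokines induce. The labels give no sex, age or strain, no pooling of animals and no stimulus other than the transfection. They do not say whether the replicates came from separate cultures, so the p-values cover only spread among these libraries, some of which may be technical.

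Cytokines of this family signal through gp130, the product of Il6st, which forms the signalling part of the receptor complex for each of the ligands among the 10 genes. IL-6 and IL-11 first bind a specific chain (IL-6 receptor alpha or IL-11 receptor alpha) and then recruit gp130, whereas LIF pairs gp130 with the LIF receptor and oncostatin M pairs it, in mouse mainly, with the oncostatin M receptor. The bound complex activates JAK kinases, which phosphorylate STAT3, and STAT3 induces SOCS3, which docks on gp130 and shuts the signal off. In cartilage, IL-6 together with its soluble receptor is known to raise matrix-degrading enzymes and to lower matrix synthesis.

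The libraries held 22349142 to 26752065 counts with Irf1 siRNA and 28565096 to 29282494 with control siRNA, so the knockdown libraries were the shallower ones. Irf1 had 125, 140 and 141 counts in the Irf1 siRNA libraries and 312, 355 and 362 in the control siRNA libraries. It was 2.15-fold lower (log2 fold change -1.10, SE 0.11, edgeR quasi-likelihood test with Benjamini-Hochberg adjustment, adjusted p = 3.0e-06), and every library lay on the side its label gives. Chondrocyte identity was clear from Col2a1, Acan and the other 7 cartilage markers, all of them detected. Their sum was 87908 to 114343 CPM (counts relative to the size of the library) with Irf1 siRNA and 87807 to 114621 CPM with control siRNA, and among the 9 only Hapln1 changed (log2 fold change -1.04). The T cell markers Cd3e and Cd3g and the macrophage markers Adgre1 and Itgam had 0 counts in every library. The 7 macrophage markers summed to 10.1 to 10.9 CPM with Irf1 siRNA and 7.69 to 10.2 CPM with control siRNA, most of it Cd68, and they did not move together. Cd68 rose (log2 fold change 0.40, adjusted p = 0.0316), and Lyz2, the only other one tested, gave -0.69 (adjusted p = 0.0566). Of those below the filter, Csf1r had 0.271 to 0.299 CPM with Irf1 siRNA and 0.319 to 0.506 CPM with control siRNA, and Ptprc overlapped between the groups. The 6 fibroblast markers summed to less with Irf1 siRNA (3186 to 4059 CPM) than with control siRNA (4477 to 5539 CPM). The sum was carried by Col1a1 and Col3a1, which fell by 0.51 and 0.55 on the log2 scale (edgeR adjusted p = 0.00354 and 3.4e-04). Pdgfra gave 0.012 (0.920) and Thy1 -0.30 (0.0651), and Dpt and Pi16 were below the filter. The 3 osteoblast markers, none of them past the threshold, summed to 53.6 to 79.2 CPM with Irf1 siRNA and 82.2 to 107.8 CPM with control siRNA. They did not move together either. Most of the sum was Ibsp (log2 fold change -0.70, edgeR adjusted p = 0.182). Bglap, at only 0.135 to 0.512 CPM per library, gave 1.13 (0.0880), and Sp7 gave -0.012 (0.944). Whether these differences have a part in the values below was not tested, and in bulk RNA fewer cells of a type cannot be told apart from less RNA per cell.

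With Irf1 siRNA, 4 of the 10 genes changed, against 22.4% of all tested genes. The ligand Il11 and the receptor chain Il6ra rose, and the receptor chains Il6st and Osmr fell. The 2 rises compare with a share of 10.4% of all tested genes that rose, and the 2 falls with 12% that fell. The median log2 fold change of the 10 genes was -0.0082, and that of all tested genes was 0.0011.

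The promoters of the 4 changed genes are shown because they include both directions of change, and that of Il6 is added as the best known inducible promoter of the family. Sequences are 300-base windows around the transcription start from RefSeq (GRCm38.p6, an older build than the GRCm39 of the counts), 5′ to 3′ on the strand of the gene. Capitals mark matches on either strand to 5 motifs: the IRF element (GAAA, any 2 bases, GAAA), the STAT element (TTC, any 3 bases, GAA), the NF-kB element (GGG, any 2 bases, TTTCC), the C/EBP element (TTG, any 2 bases, CAA) and the AP-1 element (TGA, any base, TCA). No matches overlapped in the windows shown. RefSeq lists 2 starts for Il11, and the first listed is shown.
Il11 promoter, chr7:4782808-4783107, minus strand: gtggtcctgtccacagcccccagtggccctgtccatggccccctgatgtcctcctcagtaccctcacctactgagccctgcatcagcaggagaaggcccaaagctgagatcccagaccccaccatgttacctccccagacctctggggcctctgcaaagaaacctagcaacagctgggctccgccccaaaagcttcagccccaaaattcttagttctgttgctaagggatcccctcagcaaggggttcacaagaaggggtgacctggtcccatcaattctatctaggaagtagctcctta
Il6ra promoter, chr3:89913147-89913446, minus strand: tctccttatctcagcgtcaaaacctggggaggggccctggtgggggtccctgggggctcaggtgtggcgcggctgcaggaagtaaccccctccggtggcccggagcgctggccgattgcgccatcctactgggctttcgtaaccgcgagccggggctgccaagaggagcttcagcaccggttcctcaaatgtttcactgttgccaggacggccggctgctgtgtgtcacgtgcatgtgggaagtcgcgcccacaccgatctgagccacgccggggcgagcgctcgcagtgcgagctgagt
Il6st promoter, chr13:112463820-112464119, plus strand: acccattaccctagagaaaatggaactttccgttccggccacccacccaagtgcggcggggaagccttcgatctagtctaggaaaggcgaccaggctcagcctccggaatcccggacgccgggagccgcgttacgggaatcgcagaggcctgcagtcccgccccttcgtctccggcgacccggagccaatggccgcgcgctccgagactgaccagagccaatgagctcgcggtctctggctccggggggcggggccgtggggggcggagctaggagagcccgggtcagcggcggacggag
Osmr promoter, chr15:6874264-6874563, minus strand: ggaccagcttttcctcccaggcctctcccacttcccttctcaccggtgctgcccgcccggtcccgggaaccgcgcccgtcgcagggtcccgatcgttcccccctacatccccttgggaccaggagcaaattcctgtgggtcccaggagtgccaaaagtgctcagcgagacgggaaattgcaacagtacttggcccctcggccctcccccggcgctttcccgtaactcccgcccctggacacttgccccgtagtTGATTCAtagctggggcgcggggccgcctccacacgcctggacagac
Il6 promoter, chr5:30012864-30013163, plus strand: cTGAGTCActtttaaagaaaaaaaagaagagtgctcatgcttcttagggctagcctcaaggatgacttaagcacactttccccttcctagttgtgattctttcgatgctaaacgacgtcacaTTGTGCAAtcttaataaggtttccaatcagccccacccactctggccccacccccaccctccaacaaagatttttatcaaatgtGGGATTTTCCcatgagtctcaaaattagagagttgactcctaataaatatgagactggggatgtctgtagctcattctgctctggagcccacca
The shown windows of Il11, Il6ra and Il6st held no match to any of the 5 motifs, and that of Osmr held a single match to the AP-1 element, at base 254 of the window. The Il6 window held an AP-1 match at base 2, a C/EBP match at base 123 and an NF-kB match at base 207. The IRF element, the core of the sequences that interferon regulatory factors bind, was found in none of the windows of the 9 members with a RefSeq entry, and it was found in 3.44% of the 32851 windows in the table. The shares of all windows were 8.3% for the STAT element, 1.63% for the NF-kB element, 6.4% for the C/EBP element and 7.81% for the AP-1 element. Among the other windows, that of the second Il11 start had an AP-1 match (base 153), Lif an AP-1 match and Socs3 a STAT match. These matches describe letters in short windows, and no entry was present for Clcf1.

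Among the ligands, Il11, which encodes a cytokine that signals through IL-11 receptor alpha and gp130, showed the firmest change. It had 11.8, 11.2 and 10.8 CPM with Irf1 siRNA, against 8.10, 7.27 and 7.66 CPM with control siRNA. The groups were well apart, and the lowest knockdown library exceeded the highest control library. Il11 averaged 11.3 ± 0.514 CPM with Irf1 siRNA and 7.68 ± 0.414 CPM with control siRNA (SD, n = 3 each). It was 1.47-fold higher (log2 fold change 0.56, SE 0.10, 95% interval 0.35 to 0.76, edgeR adjusted p = 8.1e-04). The call held under all 13 alternative settings, with log2 fold changes of 0.52 to 0.59.

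Il6 itself was barely detected in these cultures. It had 17, 14 and 11 counts in the Irf1 siRNA libraries and 13, 11 and 6 counts in the control siRNA libraries, which is 0.767, 0.508 and 0.470 CPM against 0.464, 0.39 and 0.203 CPM. The groups did not overlap, but the lowest knockdown value and the highest control value nearly touched. The log2 fold change of 0.71 (SE 0.39) had a 95% interval of -0.12 to 1.55 and an edgeR adjusted p of 0.217. A difference of this size was not resolved at this depth.

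Lif, a cytokine that acts through LIFR and gp130, had 24.8, 26.0 and 23.8 CPM with Irf1 siRNA, against 23.9, 23.4 and 26.4 CPM with control siRNA. The groups overlapped throughout, with a log2 fold change of 0.018 (95% interval -0.14 to 0.18, edgeR adjusted p = 0.892). Clcf1, whose product binds the CNTF receptor, LIFR and gp130, had 19.9, 20.2 and 16.9 CPM with Irf1 siRNA, against 17.2, 17.5 and 17.4 CPM with control siRNA. Knockdown replicate 3 lay below all controls and the other two knockdown libraries above them. The log2 fold change was 0.13 (95% interval -0.05 to 0.31, edgeR adjusted p = 0.302). In GENCODE M21 a protein-coding gene on the same strand, AC109138.7, shares exon sequence with Clcf1. Its counts were not looked up, and the treatment of reads that fit both is not given, so the level of Clcf1 is uncertain.

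**Figure D1:**
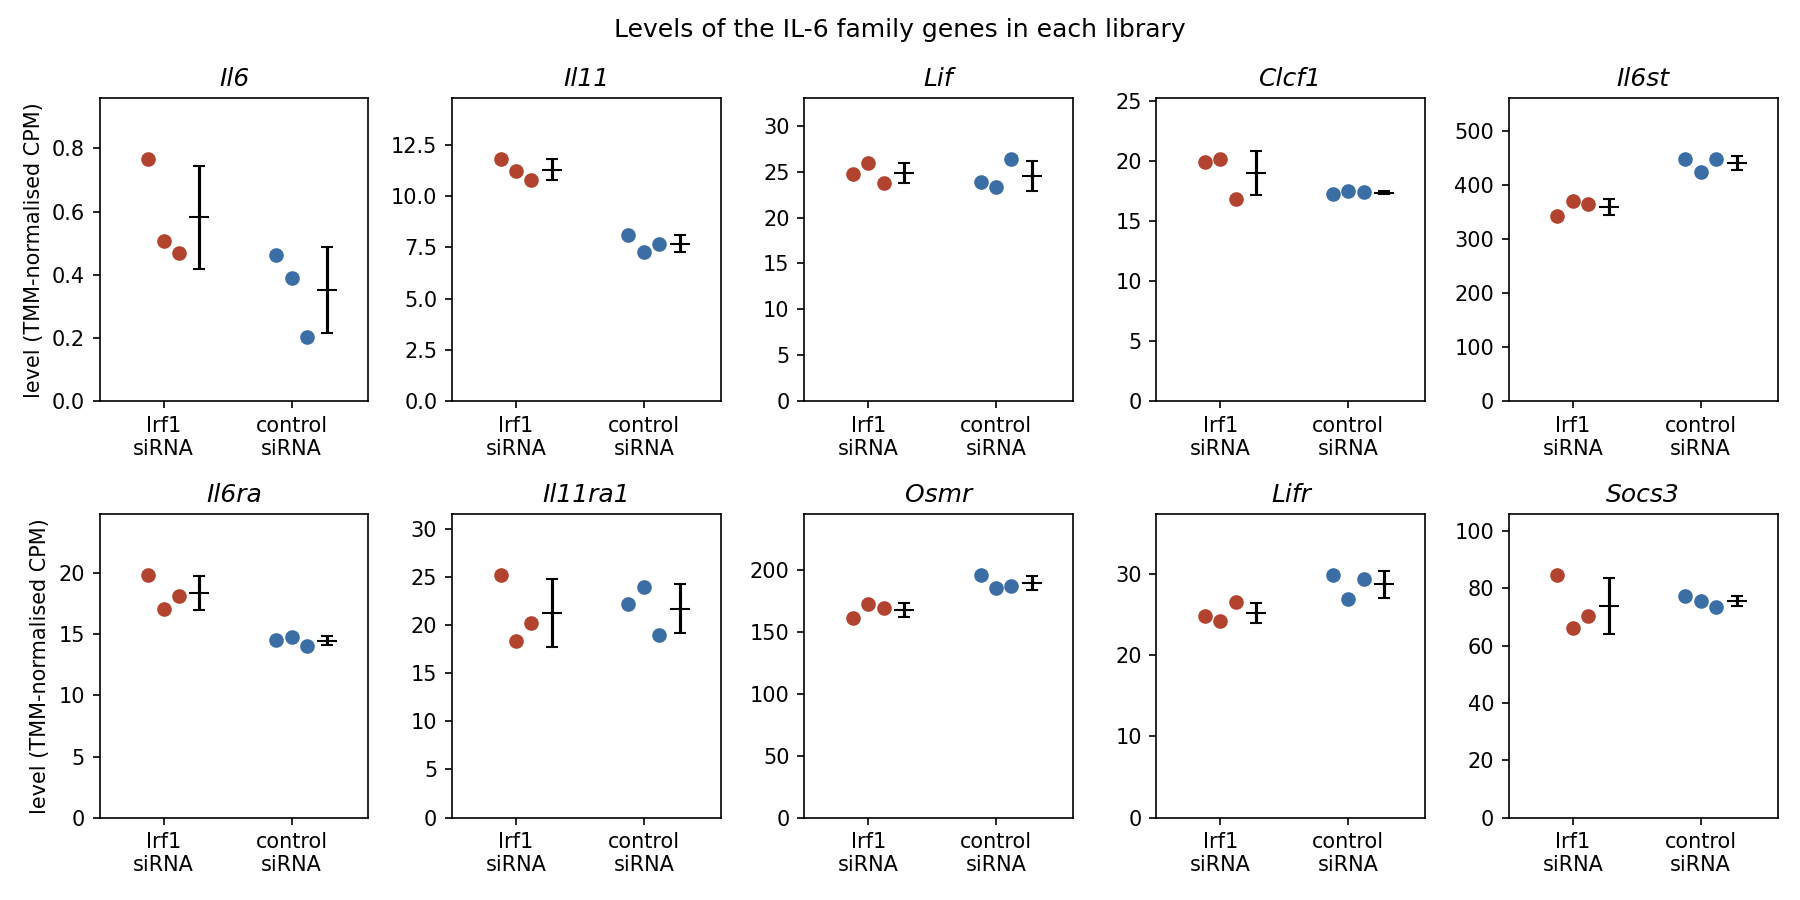
Levels of the 10 genes in TMM-normalised CPM (vertical axes, each starting at 0), with Irf1 siRNA libraries at the left and control siRNA libraries at the right of each panel. Points are libraries, and bars beside them show the mean ± SD (n = 3). Il11 and Il6ra lie higher and Il6st and Osmr lower with Irf1 siRNA without overlap, whereas Lif, Clcf1, Il11ra1 and Socs3 overlap.

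Of the receptor chains, Il6st, which encodes gp130, was the most abundant and fell. It had 342.6, 370.9 and 364.8 CPM with Irf1 siRNA, against 448.4, 424.5 and 448.1 CPM with control siRNA. All knockdown libraries lay below all control libraries. The mean was 359.5 ± 14.9 CPM with Irf1 siRNA and 440.3 ± 13.7 CPM with control siRNA (SD, n = 3 each), which left 81.6% of the control level (log2 fold change -0.29, SE 0.06, 95% interval -0.41 to -0.17, edgeR adjusted p = 0.00149). This call also held under all 13 alternatives, with log2 fold changes of -0.32 to -0.26.

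Il6ra, the chain that gives cells the ability to bind IL-6 and is also shed as a soluble receptor, moved the other way. It had 19.9, 17.1 and 18.2 CPM with Irf1 siRNA, against 14.5, 14.8 and 14.1 CPM with control siRNA. The knockdown libraries were all higher, and they were more spread than the controls (mean 18.4 ± 1.41 CPM with Irf1 siRNA against 14.5 ± 0.373 CPM with control siRNA; SD, n = 3 each). It was 1.27-fold higher (log2 fold change 0.34, SE 0.08, 95% interval 0.16 to 0.52, edgeR adjusted p = 0.00806), and the call held under all 13 alternatives. An antisense gene, Gm42809, shares exon sequence with Il6ra in GENCODE M21 and had 0 to 12 counts per library. The strand setting and the treatment of reads that fit both are not given. How such reads bear on the Il6ra counts is therefore not known.

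Osmr, the oncostatin M receptor chain, fell by less. It had 160.9, 172.0 and 168.9 CPM with Irf1 siRNA, against 195.7, 185.0 and 186.6 CPM with control siRNA. The groups did not overlap, and the knockdown libraries kept 88.5% of the control level (log2 fold change -0.18, SE 0.06, 95% interval -0.29 to -0.06, edgeR adjusted p = 0.0308). The call was lost under 6 of the 13 alternatives, namely upper-quartile scaling, library totals alone, and without Irf1 siRNA replicate 1 or 3 or control siRNA replicate 1 or 2 (adjusted p = 0.0584 to 0.121), with a fall of 0.15 to 0.20 on the log2 scale throughout.

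Lifr, the LIF receptor chain, which pairs with gp130 for LIF and CLCF1, had 24.8, 24.2 and 26.6 CPM with Irf1 siRNA, against 29.9, 26.8 and 29.4 CPM with control siRNA. The groups were separate but close. The log2 fold change of -0.19 (SE 0.07) was of the same size as that of Osmr, with a 95% interval of -0.34 to -0.03, and it missed the threshold (edgeR adjusted p = 0.0788; 0.0641 to 0.221 over the alternatives). Il11ra1, which encodes IL-11 receptor alpha, had 25.2, 18.3 and 20.2 CPM with Irf1 siRNA, against 22.2, 23.9 and 18.9 CPM with control siRNA. These overlapped (log2 fold change -0.035, 95% interval -0.28 to 0.21, edgeR adjusted p = 0.864). Values of Il11ra1 are uncertain because Il11ra2, a near copy, was listed at 0 counts in every library and the treatment of reads that fit both is not given. Ccl27a, on the opposite strand, also shares exon sequence with it (52 to 76 counts per library).

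Socs3, the STAT3-induced inhibitor that docks on gp130, had 84.7, 66.1 and 70.5 CPM with Irf1 siRNA, against 77.4, 75.6 and 73.6 CPM with control siRNA. The knockdown libraries fell on both sides of the controls and were more spread (SD 9.71 CPM with Irf1 siRNA against 1.89 CPM with control siRNA, n = 3 each). The log2 fold change was -0.036 (95% interval -0.20 to 0.13, edgeR adjusted p = 0.781).

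**Figure D2:**
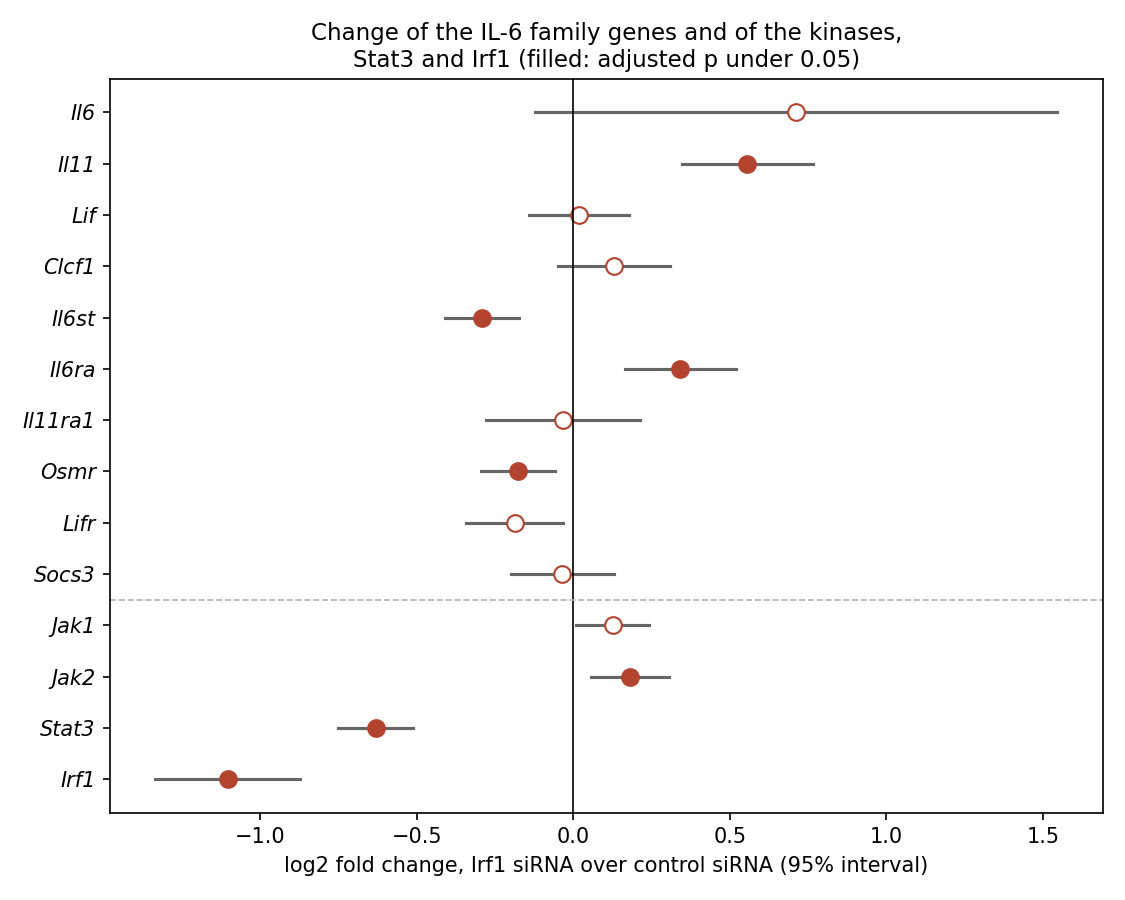
Log2 fold changes of Irf1 siRNA over control siRNA with 95% intervals (horizontal axis) for the 10 genes in order of role, and below the dashed line for the kinases Jak1 and Jak2, for Stat3 and for the targeted gene Irf1. Filled points have an edgeR adjusted p under 0.05. Il11 and Il6ra lie to the right of 0, Il6st and Osmr to the left, and Stat3 lies at -0.63.

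Across the family, the groups did not overlap for 6 of the 10 genes, 3 higher and 3 lower, where 38.1% of all tested genes had groups that did not overlap (18.6% higher and 19.5% lower). The 6 are the 4 changed genes with Il6 and Lifr.

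Levels of different genes were set side by side only after division by exon length (GENCODE M21, matched by gene identifier), as CPM per kilobase (kb). Il6st led in both groups, at 32.4 ± 1.34 CPM per kb with Irf1 siRNA and 39.7 ± 1.24 CPM per kb with control siRNA (SD, n = 3 each). Socs3 came next, at 25.5 ± 3.36 CPM per kb with Irf1 siRNA and 26.1 ± 0.652 CPM per kb with control siRNA. Osmr followed, at 13.8 ± 0.474 CPM per kb with Irf1 siRNA and 15.6 ± 0.478 CPM per kb with control siRNA, and these neighbours did not overlap in either group. At the other end, Il6 had 0.240 ± 0.0667 CPM per kb with Irf1 siRNA and 0.145 ± 0.0555 CPM per kb with control siRNA. The middle of the order differed between the groups. Il11 ranked 5 with Irf1 siRNA (5.42 CPM per kb), where it overlapped Lif above it (5.71) and Clcf1 below it (4.99), and it ranked 7 with control siRNA (3.69), apart from both Clcf1 above it (4.57) and Lifr below it (2.66). Lifr and Il6ra, in rank 8 and 9, overlapped with Irf1 siRNA (Lifr 2.25 to 2.47 and Il6ra 1.98 to 2.30 CPM per kb) and were separate with control siRNA (Lifr 2.49 to 2.77 and Il6ra 1.63 to 1.72 CPM per kb). Il11ra1 overlapped Clcf1 in both groups. These lengths join all annotated exons, so they overstate the length of the transcripts in use to an unknown and gene-specific degree.

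**Figure D3:**
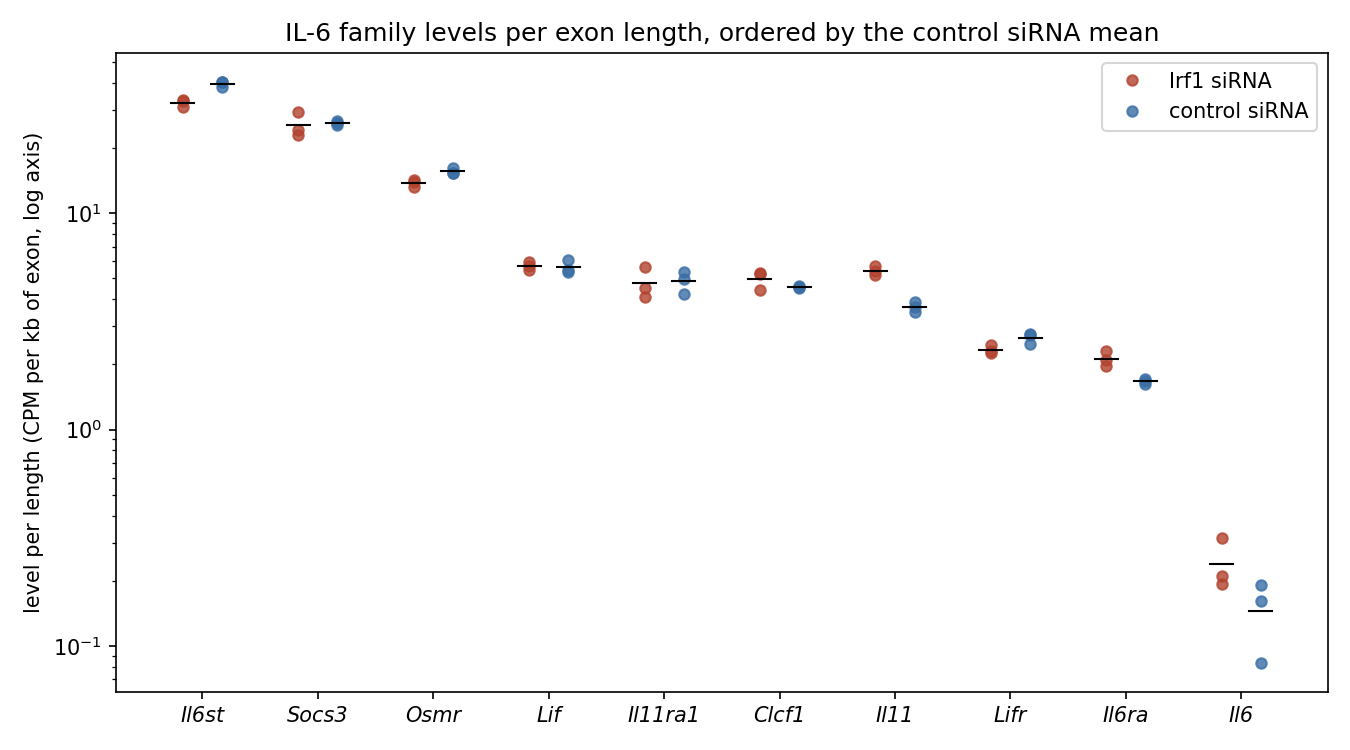
Level per exon length (CPM per kb, log axis) of the 10 genes, ordered by the control siRNA mean, with Irf1 siRNA libraries at the left and control siRNA libraries at the right for each gene. Points are libraries and short lines are means (n = 3). Il6st stands at the top and Il6 at the bottom in both groups, and the Il11 points lie level with those of Lif only with Irf1 siRNA.

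Ratios between members within a library do not depend on how libraries are scaled. For every 1000 counts of Il6st there were 58.0, 46.0 and 49.7 counts of Il6ra with Irf1 siRNA, against 32.4, 34.9 and 31.4 with control siRNA. The mean ratio of Il6ra to gp130 transcripts was thus 1.56 times as high with Irf1 siRNA, without overlap. The counts of Il11 per 1000 of Il6st were 34.5, 30.3 and 29.6 with Irf1 siRNA, against 18.1, 17.1 and 17.1 with control siRNA, 1.81 times as high. Osmr stayed closer to Il6st, at 469.6, 463.8 and 463.1 per 1000 with Irf1 siRNA, against 436.5, 435.7 and 416.5 with control siRNA. Each of these 3 ratios gave p = 0.1 in a two-sided exact permutation test, the smallest p that 3 against 3 libraries allow, so none can pass 0.05. For Il6ra and Il11 this outcome was fixed in advance, because each rose and Il6st fell without overlap in these same libraries. Those ratios restate the changes given above and do not test them anew. Lifr per 1000 Il6st counts overlapped between the groups (72.5, 65.3 and 72.8 with Irf1 siRNA, against 66.6, 63.2 and 65.6 with control siRNA; exact permutation p = 0.3). Of the other pairs, Il11 per Il11ra1 count was 1.51 times as high with Irf1 siRNA (exact permutation p = 0.1), and Il11ra1 per Il6st count gave p = 0.5 by the same exact test. The 6 ratios share members and were not adjusted for their number.

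**Figure D4:**
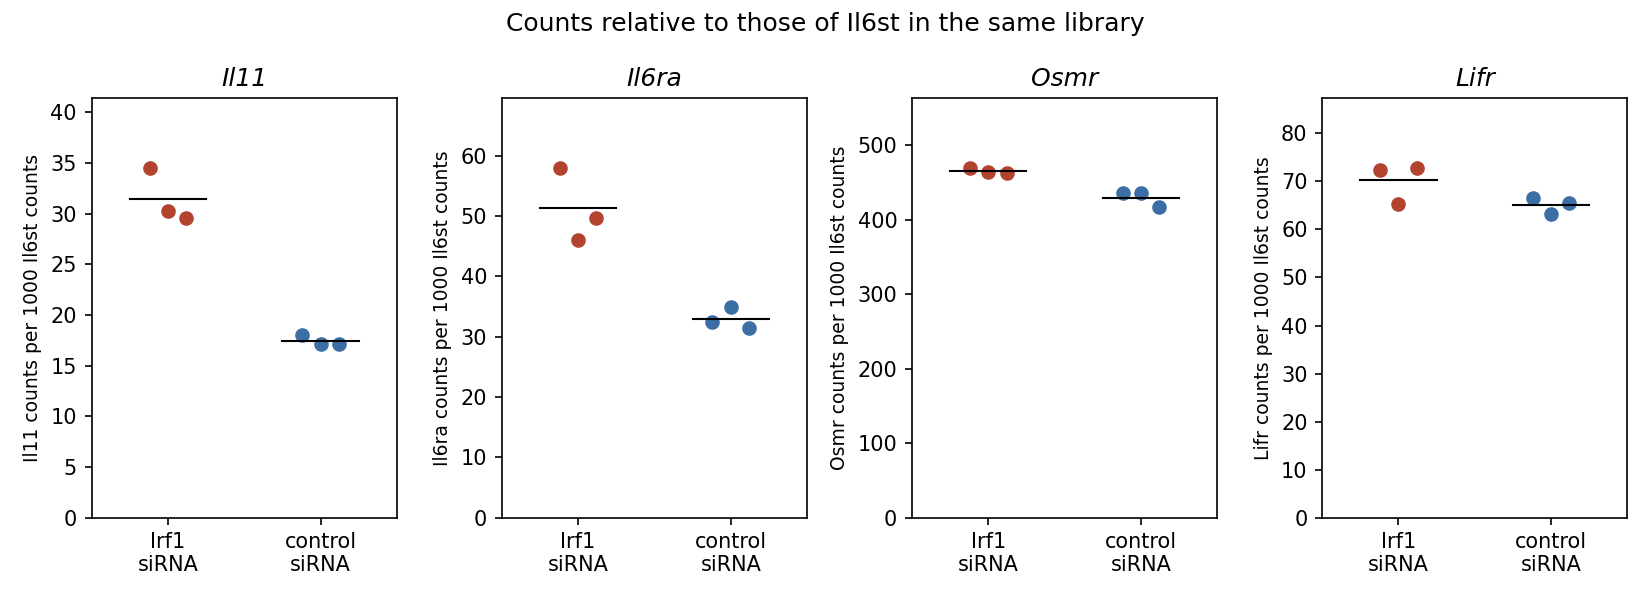
Counts of Il11, Il6ra, Osmr and Lifr per 1000 counts of Il6st in the same library (vertical axes, each starting at 0), with Irf1 siRNA at the left and control siRNA at the right of each panel. Points are libraries and lines are means (n = 3). Il11 and Il6ra stand well above their controls, Osmr slightly above, and Lifr overlaps.

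Among the other ligands of the family, 2 of 8 were abundant enough to test, and in edgeR with all libraries neither passed the threshold (0 at an unadjusted p under 0.05). The count depends on the setting: 1 ligand of the list rose with DESeq2, with no filter on low counts, with the replicate block and without control siRNA replicate 1. The cardiotrophin gene Ctf1 gave an adjusted p of 0.356. Osm, the ligand of the oncostatin M receptor, had 0 counts in every library. Of 6 other receptor chains and sheddases, 4 were tested and 0 passed the threshold in edgeR or in DESeq2 (1 lower at an unadjusted p under 0.05 in edgeR). Adam10 and Adam17, proteases that shed the IL-6 receptor, gave log2 fold changes of 0.12 and -0.14 (adjusted p = 0.286 and 0.109).

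Of the 12 kinases, STATs and adaptors that act below gp130, all were tested, 2 rose and 1 fell (25% changed, against 22.4% of all tested genes). Stat3, the main transcription factor of the pathway, had the largest change of this list, at 128.1 ± 5.98 CPM with Irf1 siRNA and 198.5 ± 5.08 CPM with control siRNA (SD, n = 3 each; log2 fold change -0.63, SE 0.06, edgeR adjusted p = 1.2e-06). Jak2 and Ptpn11, which encodes the phosphatase SHP2, rose by 0.18 and 0.20 on the log2 scale (adjusted p = 0.0351 and 0.0210). Both calls were lost without Irf1 siRNA replicate 3 or control siRNA replicate 1 or 2, and that of Jak2 also without Irf1 siRNA replicate 2 and with no filter on low counts (adjusted p = 0.0693 to 0.166). Jak1 gave 0.13 (adjusted p = 0.116). Of 11 negative regulators, Socs5 and Socs6 rose by 0.35 and 0.28 (adjusted p = 0.00126 and 0.0162), and 0 fell in edgeR or in DESeq2 (1 lower at an unadjusted p under 0.05 in edgeR). That is 18.2% changed, against 22.4% of all tested genes. The call of Socs6 was lost without Irf1 siRNA replicate 2 or control siRNA replicate 1 or 2 (0.0563 to 0.0831).

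Of 28 tested STAT3 response genes, 9 fell and 2 rose (39.3% changed, against 22.4% of all tested genes), with a median log2 fold change of 0.0052. Of all tested genes, 12% fell and 10.4% rose. At an unadjusted p under 0.05 in edgeR, 11 genes of the list were lower and 6 higher. The acute phase gene Hp, which encodes haptoglobin, fell by 0.87, the metalloreductase gene Steap4 by 0.81 and Nnmt, which encodes nicotinamide N-methyltransferase, by 0.87 on the log2 scale (adjusted p = 0.00352, 0.00132 and 0.0249). The protease inhibitor gene A2m fell by 0.28, the kinase gene Pim1 by 0.26, the mitotic survivin gene Birc5 by 0.23 and Hif1a, the hypoxia factor, by 0.20. Mcl1, a survival gene of the BCL2 family, rose by 0.37 (adjusted p = 4.0e-04). The calls of Hp, Steap4 and Mcl1 held under all 13 alternatives. The other 5 named here lost theirs under 2 to 5 alternatives: Pim1 without control siRNA replicate 2 or 3, Hif1a without Irf1 siRNA replicate 3 or control siRNA replicate 2, A2m without those or control siRNA replicate 1, Birc5 without Irf1 siRNA replicate 3 or control siRNA replicate 1 or 3 and with library totals alone, and Nnmt without Irf1 siRNA replicate 1 or 2 or control siRNA replicate 1 or 3 and with DESeq2. Their adjusted p was then 0.0504 to 0.106. The count of falls was 4 without Irf1 siRNA replicate 3, 4 without control siRNA replicate 1, 5 without control siRNA replicate 2 and 6 without Irf1 siRNA replicate 2 or with library totals alone. The count of rises was 1 without control siRNA replicate 1 or 2.

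Of 18 inducers and transcript regulators of Il6, 15 were tested, 3 rose and 3 fell (40% changed, against 22.4% of all tested genes, of which 10.4% rose and 12% fell). The inducers Il1a and Il1b had 0 counts in every library, and Tnf had 3 counts over the libraries of each group. Zfp36 and Zfp36l2, which encode RNA-binding proteins that speed the decay of cytokine transcripts, rose by 0.38 and 0.29 on the log2 scale (adjusted p = 0.00592 and 0.00654), and Atf3, a stress-induced repressor of Il6 in macrophages, rose by 0.33 (0.0120). These 3 calls held under all 13 alternatives. The IL-1 receptor gene Il1r1, the NF-kB subunit gene Nfkb1 and Rc3h2, which encodes the RNA-binding protein roquin-2, fell by 0.20, 0.17 and 0.26 (adjusted p = 0.0401, 0.0422 and 0.0237). Il1r1 lost its call under 7 alternatives, Nfkb1 under 9 and Rc3h2 under 4 (adjusted p = 0.0543 to 0.199). The list had 0 falls without Irf1 siRNA replicate 1, without Irf1 siRNA replicate 3 or with library totals alone, and 1 fall without control siRNA replicate 1 or 2, with DESeq2 or with upper-quartile scaling.

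Short words in the 3′ untranslated region (3′ UTR) were looked up because lower genes in these libraries held them more often. The 4 words searched were ACTGATC with the word CTGATCA that overlaps it, and GCTATCT with the word CTATCTA that overlaps it. They were picked in an earlier reading of these same libraries for going with lower expression, so their presence in a lower gene tests nothing. In GENCODE M21 transcripts, 25.5% of tested genes with an annotated 3′ UTR held at least 1 of them. The share was 46.8% of the lower genes, 16.2% of the higher ones and 23.1% of those not past the threshold, among them Lifr. Of the 10 members, 2 held a word, Il6st (longest 3′ UTR 5641 bases) and Lifr (6320 bases). The matches are shown in capitals in 25 bases of transcript sequence, with positions counted from the first base after the stop codon.
Il6st 3′ UTR, word at base 1442: cgttagaggCTGATCActaagtgtg
Lifr 3′ UTR, word at base 526: gtagcagcaGCTATCTggcgttctg
Lifr 3′ UTR, word at base 4052: cgagcttagCTGATCActagaagaa
Osmr, the other receptor chain called lower, and the higher genes Il11 and Il6ra held none of the words in any annotated 3′ UTR. Their longest 3′ UTRs measured 1794, 1194 and 7102 bases. The part of these words in the values of Il6st and Lifr was not tested.

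The genes whose course over the 6 libraries was closest to that of Il11, by the root mean square distance of centred log2 CPM among the 10458 genes that averaged 5 CPM or more, were Fth1 (0.028), Crebl2 (0.039) and Smarcd2 (0.046). For Il6st they were Slc35e2 (0.011), Kidins220 (0.021) and Parva (0.023). With 6 libraries in 2 groups, these distances mainly describe a difference of the same size between the groups.

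**Figure D5:**
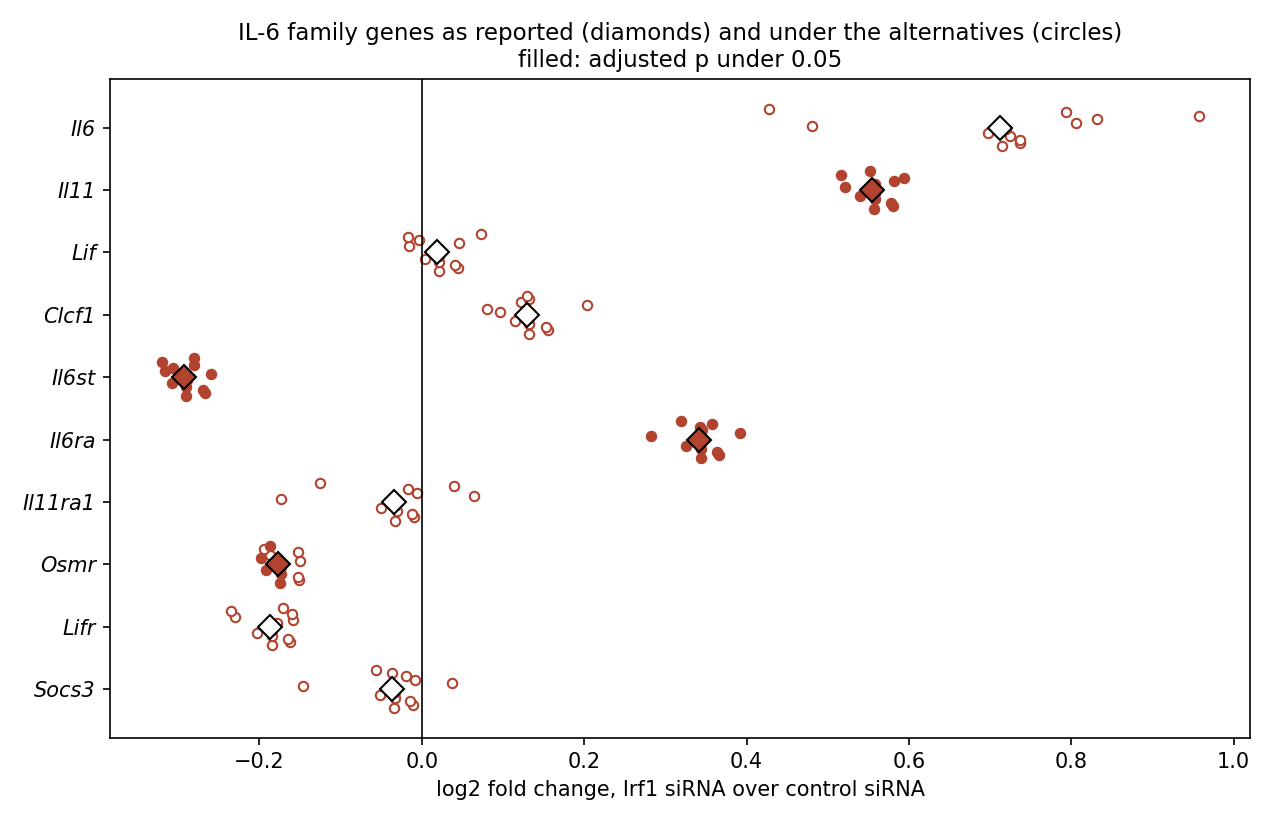
Log2 fold change of Irf1 siRNA over control siRNA (horizontal axis) for the 10 genes as reported (diamonds) and under each alternative setting (circles), filled where the adjusted p is under 0.05. Il11, Il6ra and Il6st are filled throughout, Osmr is filled in 7 of 13 alternatives, and the other 6 genes are open in all of theirs. Il6 is drawn open with DESeq2, where it had no adjusted p.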

How the data were processed

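The authors deposited raw read counts per gene for 6 RNA-seq libraries, 3 with Irf1 siRNA and 3 with control siRNA, in 1 table of whole numbers per library. Libraries were made with a stranded kit for polyadenylated RNA, per the labels' protocols. The submitters' processing notes name Trimmomatic 0.39, FastQC, STAR and the build GRCm39 (mm39). No counting tool, annotation release or strand setting is named in the sources used here, so overlapping and near-identical genes may share reads.

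The test was run with edgeR 4.0.16 in R 4.3.3: filterByExpr by group, TMM factors and the robust quasi-likelihood F test with the group as the only term, two-sided, adjusted by Benjamini and Hochberg over all 14683 tested genes, with a threshold of 0.05. SEs are the absolute log2 fold change over the square root of F. Total counts of 22349142 to 29282494 per library set the precision. No library was a copy of another: chi-square per degree of freedom was 5.81 to 16.7 between libraries of a group. Alternatives were other scalings, DESeq2 1.42.0, other filters, a replicate block and leaving out each library.

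The members and lists were chosen with earlier results of these data known. All members were named, and of each list up to 8 changed genes by adjusted p, with Stat3, Jak1 and Jak2 in any case; genes of the lists that were left out are not reported here. Osm, Ctf1, Adam10, Adam17, Il1a, Il1b and Tnf were named after their values were seen. Sequences came from RefSeq (GRCm38.p6) and GENCODE M21, matched by symbol or gene identifier.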

Additional observations from a re-analysis of the deposited data

How the results depend on the processing

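The calls of Il11, Il6ra, Il6st and Irf1 held under every alternative run, and Il6, Lif, Clcf1, Lifr, Il11ra1 and Socs3 passed the threshold in none. Il6 gave no value with the filter at a mean of 1 CPM, and with DESeq2 it had a log2 fold change (0.72) but no adjusted p. The fall of Osmr lost its call with upper-quartile scaling (log2 fold change -0.15, adjusted p = 0.0595) and library totals alone (-0.15, 0.0833), which left 1 lower member instead of 2. Leaving out 1 library at a time gave log2 fold changes of -0.20 to -0.15 for Osmr and 1 to 2 lower members. It turned the sign of 3 genes that were never called: Lif (-0.018 to 0.073), Il11ra1 (-0.17 to 0.065) and Socs3 (-0.15 to 0.037). It gave 2235 to 3114 changed genes, against 3289 with all libraries, with 959 to 1398 higher (959 without Irf1 siRNA replicate 3 and 980 without control siRNA replicate 2). The cause was not tested. In the lists, the counts with 1 library left out ran from 0 to 2 for lower Il6 regulators, 0 to 2 for higher and 1 to 2 for lower genes of the kinase list, 1 to 2 for higher negative regulators, 0 to 1 for higher other ligands, and 1 to 3 for higher and 4 to 10 for lower STAT3 response genes. Lower Il6 regulators numbered 1 with upper-quartile scaling, 0 with library totals alone and 1 with DESeq2. Higher genes of the kinase list numbered 1 with no filter. Higher other ligands numbered 1 with DESeq2, with no filter, with the replicate block and without control siRNA replicate 1. Higher genes made up 46.3% of calls, 54.5% with upper-quartile factors and 54.0% with library totals alone.

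Same-numbered libraries did not deviate together in every pair (correlation of deviations from group means 0.41, -0.16 and 0.08 for numbers 1, 2 and 3 over 10458 genes), so the numbers were not taken to pair the libraries. Pairs of unlike number reached further in both directions. Irf1 siRNA replicates 2 and 1 gave 0.49 and -0.52 with control siRNA replicate 3. A block by number does not join such pairs, and what they share was not tested. A replicate block gave 3728 changed genes and the same 4 changed members, with 5 higher STAT3 response genes in place of 2 and 1 higher other ligand in place of 0. Depth limits Il6, at 6 to 17 counts per library.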
